A study of Mus musculus with 16 samples.

Results

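The bone morphogenetic protein (Bmp) genes of mouse colonic mucosa were followed on a quantitative PCR panel. Every assay whose gene name begins with Bmp and a digit was taken, receptors excluded, which gave 15 assays for 11 genes out of 648 assays for 584 genes. Bmp1, Bmp2, Bmp4, Bmp5, Bmp8a, Bmp8b, Bmp10 and Bmp15 had 1 assay each, Bmp3 and Bmp6 had 2, and Bmp7 had 3. RNA from colonic mucosa was read in 16 samples, 4 in each of 4 groups. Healthy mice received phosphate-buffered saline (PBS) both into the rectum and by mouth. In the remaining 3 groups the colon was inflamed with DNBS (dinitrobenzene sulfonic acid), a hapten placed in the rectum. By mouth these 3 groups received PBS (the DNBS group), an agent the labels call CEC without spelling it out (DNBS_CEC), or Nissle, the name of a probiotic Escherichia coli strain (DNBS_Nissle). Strain, sex and age of the mice were not given in the sources used here. The series text speaks of RNA pooled from each mouse, while each sample carries its own number, so p-values measure the spread between these samples and may not measure that between mice.

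Bone morphogenetic proteins are secreted dimers of the TGF-beta superfamily. They bind paired type I and type II receptor kinases, which phosphorylate SMAD proteins that then act in the nucleus. In the intestine this signal is strongest towards the luminal surface, where it favours differentiation, and it is held down near the crypt base by secreted antagonists such as gremlin 1. Bmp1 carries the name but is a metalloprotease that trims procollagens and the BMP antagonist chordin, and Bmp3 is an atypical member that opposes BMP signalling in several settings.

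Levels are given as −ΔCt, the mean cycle threshold (Ct) of 13 reference genes minus the gene's own Ct. The scale is log2, 1 unit is about a doubling of RNA, and a higher (less negative) value means more RNA. Each assay has its own efficiency, so levels were compared between samples and not between genes. A Ct above 28 counted as not detected. By that limit 9 of the 11 Bmp genes were detected in 16 of 16 samples and entered every comparison. The other two were not detected in any sample. Bmp10, known from the developing heart, stood at a Ct of 40, the value for no amplification, in all of them. Bmp15, known from the oocyte, came under 40 in 5 samples, with Ct between 29.8 and 31.2. Some samples stood apart before any Bmp gene was considered. DNBS_CEC sample 2 and DNBS_Nissle sample 4 lay at −12.5 and −15.8 on the second principal component of all genes, with the other samples between −7.32 and 7.03. Healthy sample 3 and DNBS_Nissle sample 1 held 57 and 61 of 194 values that match their group's mean over its remaining samples, and each had 1 or more such Bmp values.

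Of the 11 genes, 7 had an entry in a table of mouse promoters from RefSeq (build GRCm38.p6). Bmp4, Bmp5 and Bmp6 are shown because they were the genes among Bmp2 to Bmp7 with an entry. Levels of Bmp2 to Bmp7 varied together across the samples, as described further on, though not equally closely. Pearson r was 0.78 between Bmp4 and Bmp5, 0.89 between Bmp4 and Bmp6, and 0.59 between Bmp5 and Bmp6. Each line gives the 250 bases before the annotated start, 5′ to 3′ on the gene's strand, with capitals marking the GC box GGGCGG on either strand. The windows are chr14:46390670-46390919 (minus strand) for Bmp4, chr9:75775115-75775364 (plus strand) for Bmp5 and chr13:38345466-38345715 (plus strand) for Bmp6.
Bmp4: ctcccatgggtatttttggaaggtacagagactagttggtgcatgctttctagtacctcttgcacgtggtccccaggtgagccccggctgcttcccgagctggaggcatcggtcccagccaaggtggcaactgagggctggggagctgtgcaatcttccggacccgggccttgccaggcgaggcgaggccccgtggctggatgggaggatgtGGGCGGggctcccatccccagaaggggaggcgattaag
Bmp5: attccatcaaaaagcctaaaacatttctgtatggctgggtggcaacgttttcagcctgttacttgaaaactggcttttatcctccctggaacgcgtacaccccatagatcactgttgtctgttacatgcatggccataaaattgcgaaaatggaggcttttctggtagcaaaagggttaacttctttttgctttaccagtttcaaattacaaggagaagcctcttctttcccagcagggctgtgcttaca
Bmp6: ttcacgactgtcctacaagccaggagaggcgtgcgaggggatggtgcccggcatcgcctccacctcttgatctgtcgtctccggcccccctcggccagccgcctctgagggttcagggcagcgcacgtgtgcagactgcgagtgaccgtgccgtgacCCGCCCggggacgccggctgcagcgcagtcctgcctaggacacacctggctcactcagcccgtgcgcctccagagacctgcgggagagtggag
Bmp4 and Bmp6 held 1 GC box each and Bmp5 held none, while 32.7% of 32851 promoter windows of this length held at least 1. Their G and C content was 63.2%, 42.8% and 68.8%, against a median of 52.4% over all windows. The palindrome GGCGCC, the core of a site that SMAD proteins can bind, was in none of the 3 windows and in 9.59% of all. The motif counts describe these letters only, and the panel measured nothing at these sites.

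Bmp8b, a ligand best known from brown fat and germ cells, stood highest above healthy mucosa among the 9 genes. In healthy samples 3, 4, 5 and 6 its −ΔCt was −6.24, −7.05, −7.80 and −8.38, with Ct from 26.35 to 27.91, near the limit of 28. In DNBS samples 2, 3, 4 and 5 it was −5.44, −5.16, −6.51 and −6.17. All 4 DNBS samples lay above 3 of the 4 healthy samples, and 3 of them above healthy sample 3 as well.

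The groups given an oral agent spread more widely than the DNBS group, but only DNBS_CEC spread more widely than healthy samples, through its sample 1. The DNBS_CEC samples 1, 2, 6 and 8 read −3.19, −6.45, −5.50 and −6.38 for Bmp8b, and the DNBS_Nissle samples 1, 4, 5 and 7 read −4.79, −6.73, −4.92 and −5.33. Of the 12 samples given DNBS, 8 exceeded every healthy sample and none fell below the healthy median. With Ywhaz and Rplp2, the most variable reference genes, left out of the reference, 10 of the 12 exceeded every healthy sample. DNBS_CEC sample 1 was the highest of all 16, and DNBS_CEC sample 1 and DNBS_Nissle samples 1 and 5 lay above the range of the DNBS group.

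Group means of Bmp8b were −7.37 ± 0.93 in healthy, −5.82 ± 0.62 in DNBS, −5.44 ± 0.89 in DNBS_Nissle and −5.38 ± 1.53 in DNBS_CEC (SD, n = 4 each). The mean of the 3 DNBS groups exceeded healthy by 1.82 ± 0.55 log2 units (SE), a 3.53-fold difference with a 95% interval of 0.66 to 2.98 log2 units. It did not pass, with a limma p adjusted by the Benjamini-Hochberg method over 453 genes of 0.122, and ranked 16th by p among them. Singly, the DNBS group was higher by 1.55 ± 0.67 (adjusted p = 0.402), DNBS_CEC by 1.99 ± 0.67 (0.384) and DNBS_Nissle by 1.92 ± 0.67 (0.185), all SE from limma and all against the same healthy samples. Without DNBS_CEC sample 1 the DNBS_CEC difference was 1.25, and the pooled difference was 1.58 (limma adjusted p = 0.0788).

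The call on Bmp8b turned on a few choices. With Gapdh alone as reference the pooled difference was 1.81 and passed (limma adjusted p = 0.0459). It was 2.08 and passed (0.0433) without DNBS_CEC sample 2 and DNBS_Nissle sample 4, the pair set apart on the second principal component. That pair was left out after seeing the data, and held the lowest Bmp8b reading of each group, so its removal raised the difference. Without healthy sample 3 and DNBS_Nissle sample 1 the pooled difference was 2.12 (0.199). Over 31 settings the pooled difference ranged from 1.48 to 2.20 and the adjusted p from 0.0433 to 0.345.

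The Bmp8b assay is of a type, marked g1 in its name, that can also read genomic DNA, and DNA content was not measured. The 39 g1 assays with a pooled difference had a median of −0.01 log2 units, and 4 of them lay above Bmp8b. The 370 assays of the common m1 type had a median of 0.07, with 9 above Bmp8b.

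Bmp8a, the closest relative of Bmp8b and on the same chromosome, 4, had nearly level group means. Its healthy samples ran from −5.91 to −4.77 and the 12 samples given DNBS from −6.04 to −4.51, so the ranges nearly coincided. The highest healthy value, −4.77 in sample 3, came from a Ct equal to the mean of the other healthy samples. Without it the healthy values ended at −5.23, in sample 5. Group means were −5.31 ± 0.47 in healthy, −5.50 ± 0.63 in DNBS, −5.28 ± 0.60 in DNBS_CEC and −5.31 ± 0.46 in DNBS_Nissle (SD, n = 4 each). The pooled difference was −0.06 ± 0.33 log2 units (SE, limma adjusted p = 0.980), with a 95% interval of −0.75 to 0.64. The difference between the 2 genes' responses was not tested.

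**Figure D1:**
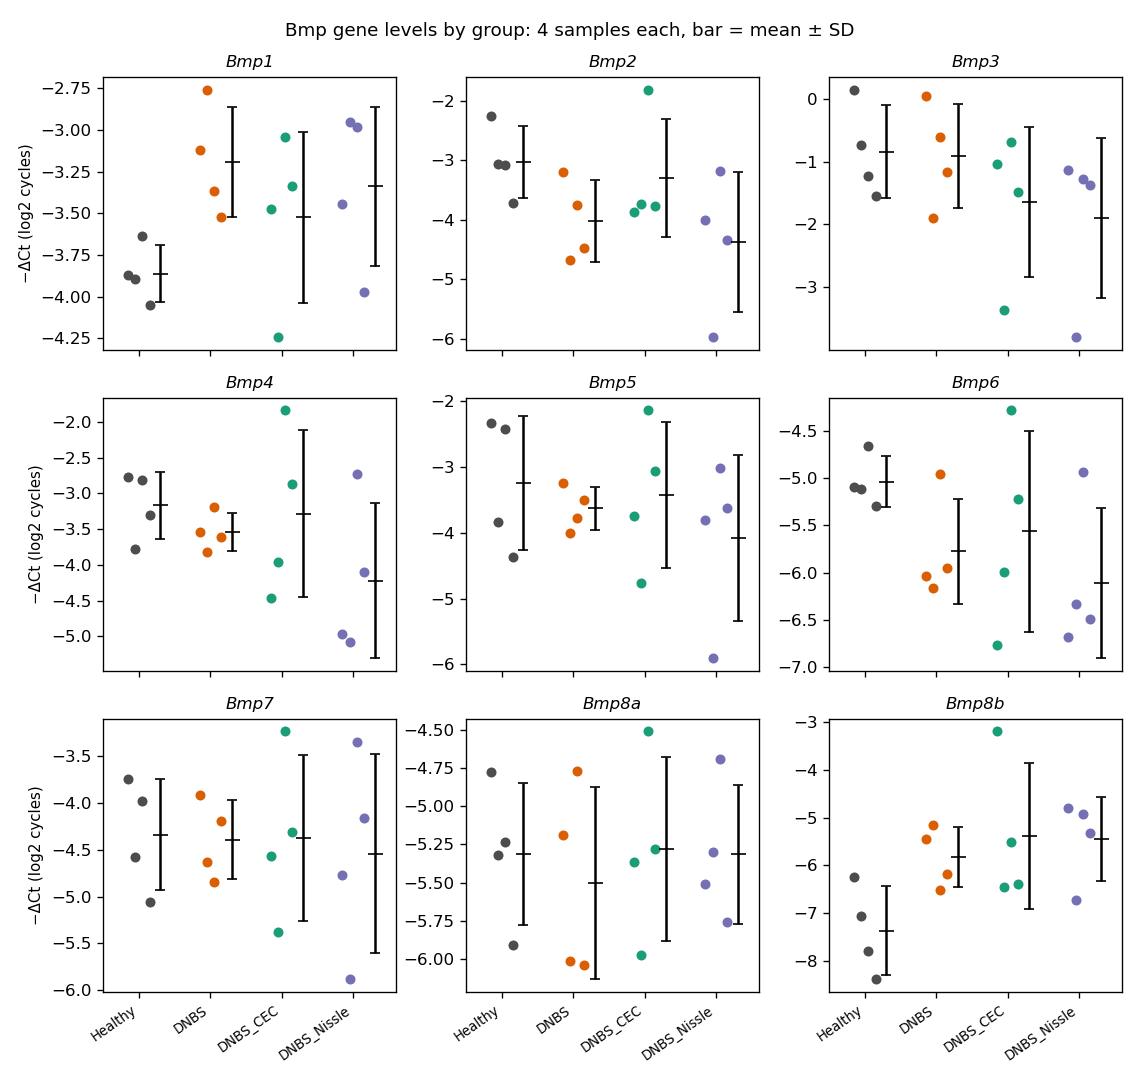
Levels of the 9 detected Bmp genes as −ΔCt (vertical axes, log2, each gene on its own scale) in the 4 groups (horizontal axes). Points are the 4 samples of a group and bars the mean ± SD. For Bmp8b, 8 of the 12 samples given DNBS lie above the highest healthy sample, at −6.24. For Bmp8a the ranges nearly coincide, though its highest healthy point, sample 3 at −4.77, has a Ct equal to the mean of the other healthy samples.

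Bmp2, one of the canonical ligands of the pathway, was mostly lower after DNBS. The healthy samples 3, 4, 5 and 6 read −2.24, −3.06, −3.08 and −3.72, and the DNBS samples 2, 3, 4 and 5 read −3.19, −4.68, −3.75 and −4.48. DNBS_CEC samples 1, 2, 6 and 8 read −3.88, −3.74, −1.81 and −3.77, and DNBS_Nissle samples 1, 4, 5 and 7 read −4.0, −5.98, −3.17 and −4.35. Of the 12 samples given DNBS, 9 lay below every healthy sample. DNBS_CEC sample 6 lay above all of them.

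The group means of Bmp2 ran from −3.03 ± 0.61 in healthy through −3.30 ± 0.996 in DNBS_CEC and −4.02 ± 0.69 in DNBS to −4.37 ± 1.18 in DNBS_Nissle (SD, n = 4 each). The pooled difference from healthy was −0.87 ± 0.48 log2 units (SE, limma adjusted p = 0.414), and that of DNBS_Nissle alone was −1.35 ± 0.59 (adjusted p = 0.274). Neither passed, and the DNBS_Nissle value leaned on its sample 4: without that sample it was −0.81 (adjusted p = 0.506). The DNBS group differed by −0.995 ± 0.589 (0.616) and DNBS_CEC by −0.27 ± 0.59 (0.953), with the healthy samples shared. Without DNBS_CEC sample 6 the last difference was −0.77.

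Bmp4, the ligand made mainly by stromal cells around the crypts, spread widely in the groups given an oral agent. Its level lay between −3.77 and −2.77 in healthy samples and between −3.82 and −3.18 in DNBS samples. In DNBS_CEC it ran from −4.46 to −1.84 and in DNBS_Nissle from −5.08 to −2.73. The group means were −3.17 ± 0.47, −3.54 ± 0.27, −3.28 ± 1.17 and −4.22 ± 1.09 in the same order (SD, n = 4 each), so healthy and DNBS_CEC were the nearest to each other. The pooled difference was −0.52 ± 0.46 log2 units (SE, limma adjusted p = 0.692), with DNBS_Nissle at −1.06 ± 0.56 (0.341) and DNBS at −0.37 ± 0.56 (0.964).

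Bmp5, Bmp6 and Bmp7 form a closely related branch of the family. Bmp6, averaged over its assays, was the most even of them in healthy mucosa, at −5.09, −5.12, −4.66 and −5.29 in samples 3, 4, 5 and 6. It read −6.03, −6.16, −4.95 and −5.96 in DNBS samples 2, 3, 4 and 5, −6.76, −5.99, −4.29 and −5.22 in DNBS_CEC samples 1, 2, 6 and 8, and −6.68, −6.33, −4.94 and −6.49 in DNBS_Nissle samples 1, 4, 5 and 7. Of the 12 samples given DNBS, 8 lay below every healthy sample and 1 above. Each DNBS group thus had 1 or more samples at or near the healthy level.

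The means of Bmp6 were −5.04 ± 0.27 in healthy, −5.57 ± 1.06 in DNBS_CEC, −5.78 ± 0.56 in DNBS and −6.11 ± 0.79 in DNBS_Nissle (SD, n = 4 each). The pooled difference was −0.78 ± 0.41 log2 units (SE, limma adjusted p = 0.398). By group it was −0.74 ± 0.50 in DNBS (adjusted p = 0.725), −0.53 ± 0.50 in DNBS_CEC (0.916; −0.13 without its sample 1 and −0.95 without its sample 6) and −1.07 ± 0.50 in DNBS_Nissle (0.291), and none passed. The 2 Bmp6 assays correlated at r = 0.61 over the 16 samples, which limits how closely any 1 sample can be read. Taken alone, the assays had healthy SDs of 0.63 and 0.36, against 0.27 for their mean. They differed by 1.69 cycles in healthy sample 6. The count of samples below every healthy sample rests on the averaged, narrower range. Some values with 4 or fewer decimals had lost digits before deposit, and without such values the DNBS difference of Bmp6 was −0.45.

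Bmp5 and Bmp7 overlapped between the groups to a greater extent. For Bmp5 the means were −3.24 ± 1.02 in healthy, −3.42 ± 1.11 in DNBS_CEC, −3.63 ± 0.33 in DNBS and −4.08 ± 1.26 in DNBS_Nissle (SD, n = 4 each). Its pooled difference was −0.47 ± 0.53 log2 units (SE, limma adjusted p = 0.777), and DNBS_Nissle, at −0.84 ± 0.65, came to −0.23 without its sample 4. For Bmp7, whose 3 assays correlated at r of 0.81 to 0.93, the means were −4.34 ± 0.59 in healthy, −4.37 ± 0.89 in DNBS_CEC, −4.39 ± 0.42 in DNBS and −4.54 ± 1.07 in DNBS_Nissle (SD, n = 4 each). These 4 means lie within less than the SD of any group. The pooled difference of Bmp7 was −0.10 ± 0.43 (SE, limma adjusted p = 0.970), with a 95% interval of −1.01 to 0.81.

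Bmp3, which is expressed in the colonic epithelium, had its lowest readings in 2 samples given an oral agent. Its level was between −1.54 and 0.15 in healthy and between −1.90 and 0.05 in DNBS samples. In DNBS_CEC it read −1.04, −3.36, −0.68 and −1.49 in samples 1, 2, 6 and 8, and in DNBS_Nissle −1.14, −3.80, −1.28 and −1.37 in samples 1, 4, 5 and 7. DNBS_CEC sample 2 and DNBS_Nissle sample 4 are those that lay apart over all genes. The 2 Bmp3 assays differed by 3.25 cycles in DNBS_Nissle sample 4, and by at most 1.44 cycles in the other 15 samples. That 1.44 was in DNBS_Nissle sample 1, where 1 of the 2 readings equals the mean of its group's other samples. The next largest gap was 0.93 cycles, in DNBS_CEC sample 2.

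The group means of Bmp3 were −0.84 ± 0.74 in healthy, −0.91 ± 0.83 in DNBS, −1.64 ± 1.19 in DNBS_CEC and −1.90 ± 1.27 in DNBS_Nissle (SD, n = 4 each). The pooled difference was −0.64 ± 0.54 log2 units (SE, limma adjusted p = 0.687) and −0.24 without those 2 samples. Values with 4 or fewer decimals, some of which had lost digits before deposit and can be off by under 1 cycle, bore on it too: without them the pooled difference was −1.08 and that of DNBS_Nissle −1.63. DNBS_Nissle differed from healthy by −1.06 ± 0.67 (SE) and by −0.42 without its sample 4, and DNBS_CEC by −0.80 ± 0.66 and by −0.23 without its sample 2.

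Bmp1, the protease, was the only other gene with a positive pooled difference. The healthy samples 3, 4, 5 and 6 read −3.87, −3.89, −3.63 and −4.05, and the DNBS samples 2, 3, 4 and 5 read −3.12, −2.76, −3.37 and −3.52. Every DNBS sample exceeded every healthy sample, which held for 1 of the 9 Bmp genes in this comparison, while the groups did not overlap in either direction for 8.53% of the 457 genes tested. Of all 12 samples given DNBS, 10 exceeded every healthy sample, and DNBS_CEC sample 2 and DNBS_Nissle sample 7 lay at −4.24 and −3.97. Among the 10 was DNBS_Nissle sample 1, at −3.44, whose Ct equals the mean of its group's other samples. With Ywhaz and Rplp2 left out of the reference, 9 of the 12 exceeded every healthy sample.

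Means of Bmp1 were −3.86 ± 0.17 in healthy, −3.52 ± 0.51 in DNBS_CEC, −3.34 ± 0.48 in DNBS_Nissle and −3.19 ± 0.33 in DNBS (SD, n = 4 each). The DNBS group was higher by 0.67 ± 0.33 log2 units (SE), or 1.59-fold, and did not pass (limma adjusted p = 0.521). Pooled, the difference was 0.51 ± 0.27 (adjusted p = 0.398), with DNBS_CEC at 0.34 ± 0.33 (0.917) and DNBS_Nissle at 0.52 ± 0.33 (0.457).

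**Figure D2:**
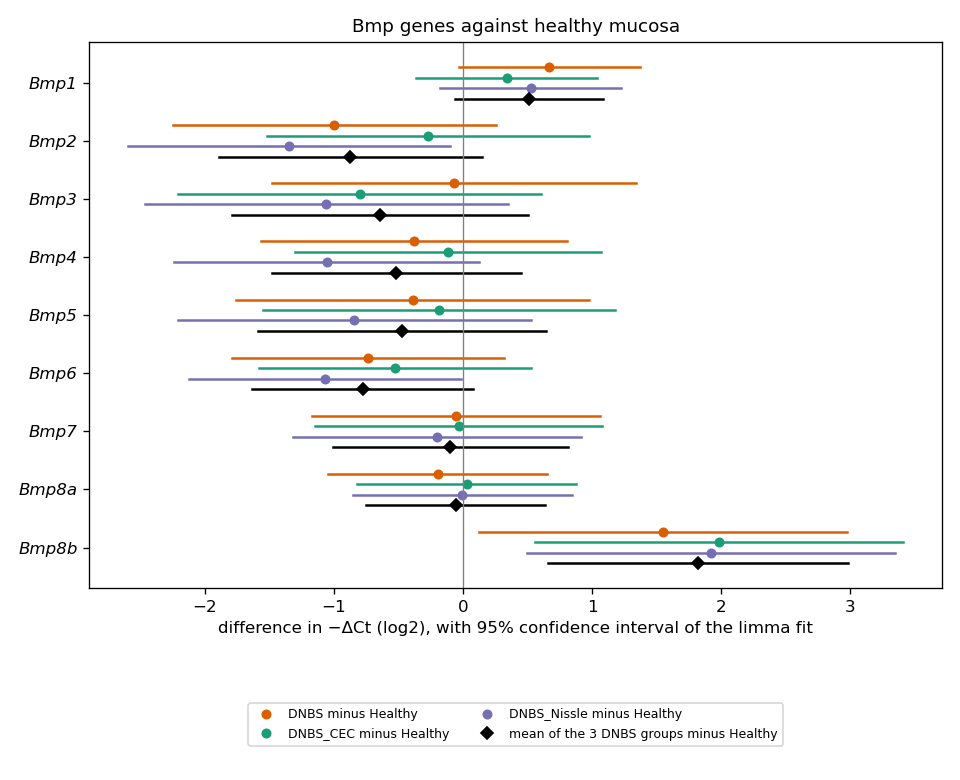
Difference of each Bmp gene from healthy mucosa in −ΔCt (horizontal axis, log2), with its 95% confidence interval from the limma fit, for each DNBS group (circles) and their mean (diamonds). The intervals of Bmp8b lie above 0 in all 4 comparisons, which are not adjusted for the number of genes and share the healthy samples.

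No Bmp gene passed an adjusted p of 0.05 in the comparisons with healthy mucosa. In the DNBS comparison 0 of 9 passed, against 1.09% of the 457 genes tested, and 1, Bmp8b, had an unadjusted limma p under 0.05, as did 45 of the 457. In the DNBS_CEC comparison 0 of 9 passed and 1, again Bmp8b, was under 0.05 unadjusted, against 0% of 458 passing and 25 of them under 0.05 unadjusted. In the DNBS_Nissle comparison 0 of 9 passed and 3 were under 0.05 unadjusted (Bmp2, Bmp6 and Bmp8b), against 2.41% of 457 passing and 77 of them under 0.05 unadjusted. For the mean of the 3 DNBS groups 0 of 9 passed and 1, Bmp8b, was under 0.05 unadjusted, against 1.99% of 453 passing and 57 of them under 0.05 unadjusted. With so small a share of all genes passing, a count of 0 among 9 is near the background.

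Most of the pooled differences were below 0. In the pooled comparison 2 of the 9 genes were higher, with a median of −0.47 log2 units, while 52.3% of all 453 genes were higher, with a median of 0.02. The signs of Bmp7 and Bmp8a, at −0.10 and −0.06, each turned in 8 settings. The DNBS_Nissle comparison had a median of −0.84 over the 9 genes and −0.09 over all 457. Those of DNBS and DNBS_CEC were −0.19 and −0.12, beside 0.12 and 0.08 over all genes. The 9 genes do not vary independently, as shown next, so these medians rest on fewer separate measurements than 9.

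Among the groups given DNBS, no difference between oral treatments passed. Of the 9 Bmp genes 0 passed, and 0 had an unadjusted limma p under 0.05, in any comparison between these groups. Of all genes tested, 0% passed between DNBS_CEC and DNBS, 0% between DNBS_Nissle and DNBS, and 0% between DNBS_CEC and DNBS_Nissle. In the same order 8 of 474, 7 of 474 and 21 of 471 genes were under 0.05 unadjusted, so these counts of 0 are near the background. Bmp2 stood 1.08 ± 0.59 log2 units higher in DNBS_CEC than in DNBS_Nissle (SE, limma adjusted p = 0.961), 0.54 without DNBS_Nissle sample 4 and 0.58 without DNBS_CEC sample 6. Bmp4 stood 0.94 ± 0.56 higher in the same comparison (0.961), and 0.46 without DNBS_CEC sample 6. Bmp2 was 0.73 ± 0.59 higher in DNBS_CEC than in DNBS (0.999), and 0.23 without DNBS_CEC sample 6. Bmp8b differed by 0.44 ± 0.68 between DNBS_CEC and DNBS, by 0.38 ± 0.68 between DNBS_Nissle and DNBS, and by 0.06 ± 0.68 between DNBS_CEC and DNBS_Nissle, in log2 units (SE). Their 95% intervals were −0.999 to 1.88, −1.06 to 1.82 and −1.38 to 1.499.

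Across samples, Bmp2 to Bmp7 varied together, and Bmp8a with them to a lesser degree. Over the 16 samples, the 15 pairs among these 6 genes had correlations of −ΔCt between 0.35 and 0.92 with a median of 0.74, and a median of 0.77 after the group means were removed. The median over pairs of all 412 genes read in every sample was 0.19. Since each sample's reference value enters all its genes, the medians were also taken without Ywhaz and Rplp2 in the reference, and came to 0.65 for the 6 genes and 0.11 for all. Ywhaz itself ranged from a Ct of 17.9 to 26.8. By rank the 15 pairs were less close: Spearman rho ran from 0.31 (Bmp3 and Bmp6) to 0.94 (Bmp5 and Bmp7) and lay below r for most. For Bmp2 and Bmp7 rho was 0.56 against an r of 0.74, and for Bmp2 and Bmp5 0.57 against 0.82. For Bmp4 and Bmp6 it was higher, at 0.91 against 0.89. Bmp8a correlated with these 6 genes at r between 0.47 (Bmp3) and 0.61 (Bmp6), and between 0.29 and 0.62 without Ywhaz and Rplp2. Bmp8b correlated with the other 8 Bmp genes at a median of 0.13, which was −0.12 without Ywhaz and Rplp2 and 0.26 within groups, and with Bmp6 at −0.51. Bmp1 correlated with the other 8 at a median of 0.06.

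The shared variation shows sample by sample. DNBS_CEC sample 6 held the highest reading of Bmp2, Bmp4, Bmp5, Bmp6, Bmp7 and Bmp8a, and DNBS_Nissle sample 4 the lowest of Bmp2, Bmp3, Bmp4, Bmp5 and Bmp7. These ranks depended on the reference. Without Ywhaz and Rplp2 in it, DNBS_CEC sample 6 was highest for Bmp2 and Bmp4 among those genes, and DNBS_Nissle sample 4 lowest for Bmp2 and Bmp5. In DNBS_Nissle sample 4, assays of 1 gene disagreed by a median of 0.71 cycles over 33 genes, against 0.17 to 0.39 in the others. The part of assay disagreement in these readings was not tested.

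**Figure D3:**
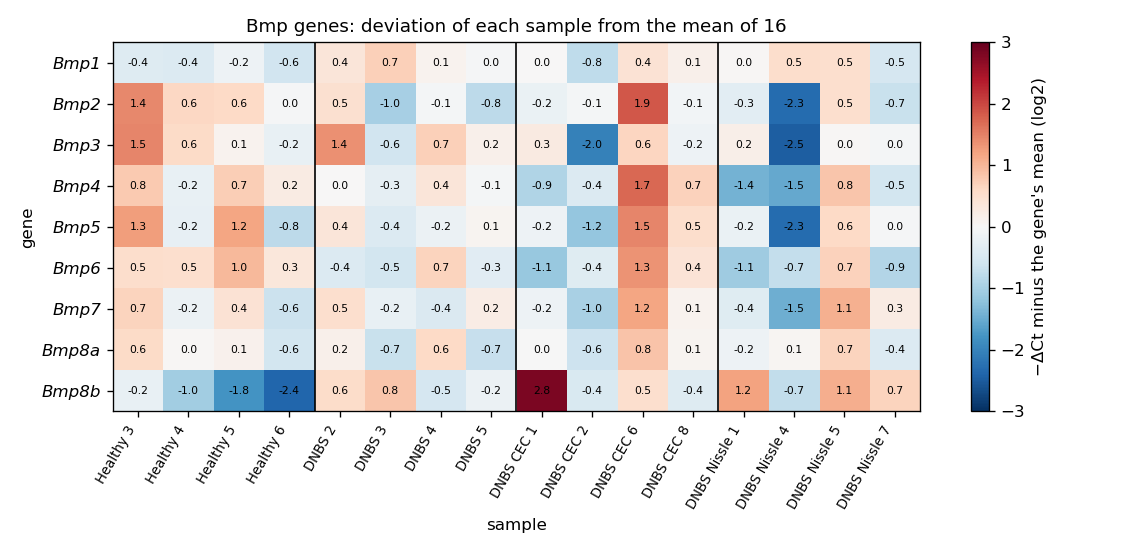
Deviation of −ΔCt from the mean of the 16 samples (log2, colour and printed value) for the 9 Bmp genes (rows) in each sample (columns, vertical lines between groups). DNBS_CEC sample 6 is high and DNBS_Nissle sample 4 low for most of Bmp2 to Bmp7, on this reference, while Bmp8b is highest in DNBS_CEC sample 1 and lowest in healthy sample 6.

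Grem1, a secreted BMP antagonist that stromal cells near the crypt base make, followed Bmp8b across the samples. Among 403 other genes read in all samples it had the pattern most like Bmp8b (r = 0.83, Spearman rho = 0.91, r = 0.79 within groups, n = 16). Without DNBS_CEC sample 1 and healthy sample 6, the farthest from the median of Bmp8b, r was 0.74. Grem1 stayed first in rank without Ywhaz and Rplp2 in the reference, at 0.80, while within groups it ranked 5th.

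The Grem1 samples were on average higher after DNBS. The means were −2.95 ± 0.60 in healthy, −1.80 ± 0.99 in DNBS, −1.81 ± 0.95 in DNBS_CEC and −1.90 ± 1.26 in DNBS_Nissle (SD, n = 4 each), a pooled difference of 1.11 ± 0.52 log2 units (SE). It did not pass (limma adjusted p = 0.378).

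**Figure D4:**
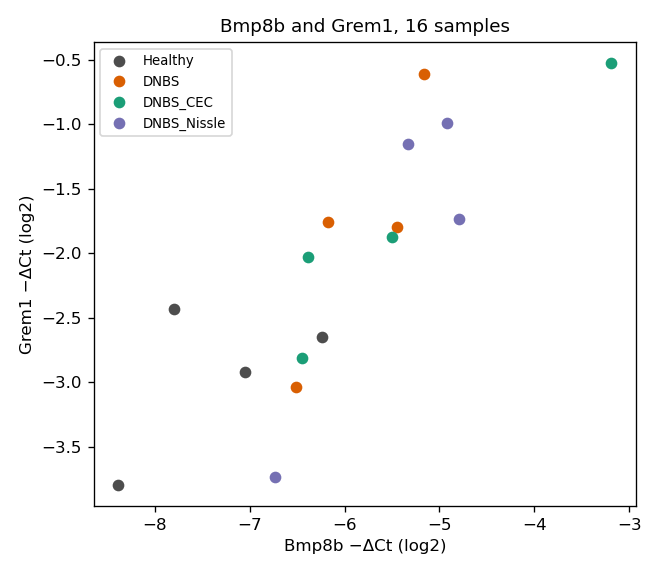
Levels in −ΔCt (log2) of Bmp8b (horizontal axis) against Grem1 (vertical axis), 1 point per sample and 1 colour per group. Points run from low to high together (r = 0.83 over 16 samples), with DNBS_CEC sample 1 highest and healthy sample 6 lowest on both axes.

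Other genes with patterns like a Bmp gene, chosen as those with the highest r over the 16 samples among the 403, were as follows. Bmp2 and Bmp7 shared the membrane protein gene Cmtm4 (r = 0.89 for both). Bmp4 was most like the sulfotransferase Chst1 (0.93), followed by Lta4h (0.86) and Fgf10 (0.85), a growth factor of stromal cells. Bmp5 was most like the thrombin receptor F2r (0.96) and Bmp3 the bradykinin receptor Bdkrb2 (0.91). Bmp6 had Fgf11 (0.92) and Afap1l2 (0.90) among its 3 highest. Bmp8a was most like the surface glycoprotein Cd24a (0.86), and Bmp1 the lymphatic growth factor Figf, also called Vegfd (0.77). After Grem1, Bmp8b was most like Itgam (0.79), an integrin of neutrophils and macrophages, and Il1rn (0.79), the interleukin 1 receptor antagonist.

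The rest of the pathway was only partly on the panel. Of 14 receptors listed, 5 were present and tested (Bmpr1b, Acvr1, Acvr2b, Acvrl1 and Tgfbr1), and 0 passed in any of the 7 comparisons. Their pooled median was −0.04 log2 units beside 0.02 over all genes, with Acvr2b lowest at −0.80 ± 0.52 (SE, limma adjusted p = 0.484). Of 11 SMAD proteins and targets listed, 0 were on the panel, so the response to BMP ligands was not measured. Of 23 other ligands of the superfamily 15 were on the panel and 7 were tested. Inhbb, which encodes a subunit of activin B, passed: its pooled level rose by 1.53 ± 0.36 log2 units (SE, limma adjusted p = 0.0361), and that of DNBS_Nissle alone rose by 1.79 ± 0.44 (0.0405). Inhbb did not pass in DNBS (1.71 ± 0.44, limma adjusted p = 0.104) or in DNBS_CEC (1.08 ± 0.44, 0.772) against healthy. Its healthy Ct ran from 26.64 to 27.90, near the limit of 28. Inhba, the subunit of activin A, was 0.94 ± 0.42 higher pooled (0.351) and did not pass.

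Over the whole panel, 528 to 564 assays were detected per sample. The epithelial markers present, Krt8, Il18 and Ccl28 (3 of 16 listed), were read in all samples, with a mean −ΔCt of 1.13, 1.03, 1.20 and 0.90 in healthy, DNBS, DNBS_CEC and DNBS_Nissle. Singly they did not move together. Pooled differences were −0.59 ± 0.31 for Ccl28, −0.15 ± 0.54 for Krt8 and 0.47 ± 0.34 for Il18 (log2 units, SE), and 0 passed. Of 7 neutrophil markers 6 were on the panel and 4 tested. S100a8, S100a9 and Ltf passed in the pooled comparison, with S100a8 at 6.33 ± 1.22 log2 units (SE, limma adjusted p = 0.00945). The mean level of the 3 neutrophil markers read everywhere lay between −6.69 and −5.58 in healthy, −3.04 and 2.56 in DNBS, −5.53 and 0.45 in DNBS_CEC, and −0.33 and 0.36 in DNBS_Nissle samples. Of 10 monocyte and macrophage markers 5 were tested and 1, Chi3l3, passed. All 5 adipocyte markers were on the panel and 4 were tested. Their mean level lay between −2.98 and 0.36 in healthy, −2.27 and −0.95 in DNBS, −3.81 and −1.30 in DNBS_CEC, and −3.88 and −2.52 in DNBS_Nissle samples. The 4 differences were below 0 in both the pooled and the DNBS_Nissle comparison, with medians of −1.32 and −2.08 log2 units, and 0 passed (in DNBS_Nissle, Retn −2.49 ± 0.75, SE, limma adjusted p = 0.121). Of 6 endothelial markers 1 was tested, Selp, which rose by 3.26 ± 0.71 in DNBS_Nissle (SE, limma adjusted p = 0.0175). The 3 T cell and 1 B cell markers tested had pooled medians of −0.55 and −0.46, and 0 passed. Of 11 mesenchymal markers only Kitl was on the panel, with a pooled difference of −0.47 log2 units. The part of these cell types in the Bmp differences was not tested, and in tissue RNA fewer cells of a type and less RNA per cell cannot be told apart.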

How the data were processed

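The authors deposited raw cycle thresholds (Ct) from a TaqMan OpenArray Mouse Inflammation Panel run on an OpenArray NT Cycler, per the labels' protocols, with no normalization and with thresholding not given in the sources used here. RNA came from a mirVana kit. No counts underlie a Ct, so the number of samples limits the precision. As deposited, 194 values, 4 of them in Bmp assays, equal their group's mean of the other samples (tolerance 2e-06), and the digits 40 are missing from many decimals. Such values entered the main fit, and alternatives omitted them. The −ΔCt used 13 reference genes (19 assays), among them Gapdh, Actb, Ywhaz and Rplp2, and assays of 1 gene were averaged. Differences were fitted with limma 3.58.1 in R 4.3.3 in 1 model over 16 samples, adjusted over all genes detected in at least 3 of 4 samples of each group, with a threshold of 0.05. Control genes were not tested. The script was tested on simulated data. All Bmp assays are named, and for each detected gene the most alike other genes by Pearson r. A gene is not reported here by name. The members and lists were chosen with earlier results of these data known.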

Additional observations from a re-analysis of the deposited data

Results flagged for a closer look

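Of 36 sets of 4 samples (9 Bmp genes in 4 groups), 2 held a sample far from the others by Dixon's gap test, where chance gives about 1 in 20. Bmp2 in DNBS_CEC sample 6 stood at −1.81, with the next highest of its group at −3.74. Bmp3 in DNBS_Nissle sample 4 stood at −3.80, with the next lowest at −1.37.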

How the results depend on the processing

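The 9 Bmp genes were refitted under other references, detection limits, treatments of edited values, models and sets of samples. In all 7 comparisons the count of Bmp genes that passed was 0 with any single sample left out (range 0 to 0) and under every other setting, except that the pooled count was 1, Bmp8b, with Gapdh alone as reference (1.81) and without DNBS_CEC sample 2 and DNBS_Nissle sample 4 (2.08), an alternative chosen after seeing the data, as was reading each assay alone. At a detection limit of 26 Bmp8b could not be tested against healthy mucosa. The pooled difference of Bmp7 (−0.10) turned positive without healthy sample 3 and DNBS_Nissle sample 1 (0.13), with a replicate block (0.036), without DNBS_CEC sample 2 and DNBS_Nissle sample 4 (0.16) and by 1 of its 3 assays (0.077), and ran from −0.34 to 0.10 with single samples left out. That of Bmp8a (−0.06) turned positive with filled-in values left out (0.12), without healthy sample 3 and DNBS_Nissle sample 1 (0.14), with the replicate block (0.15) and without DNBS_CEC sample 2 and DNBS_Nissle sample 4 (0.019), and ran from −0.26 to 0.12 with single samples left out. Bmp8b between DNBS_CEC and DNBS_Nissle (0.06) turned negative without Ywhaz and Rplp2 in the reference (−0.19), with all endogenous controls (−0.0014), Gapdh alone (−0.29) or the global mean (−0.00055) as reference, and without DNBS_CEC sample 2 and DNBS_Nissle sample 4 (−0.011), and ran from −0.67 to 0.42 with single samples left out. Between DNBS_CEC and DNBS it ran from −0.29 to 0.80 with single samples left out, and between DNBS_Nissle and DNBS it was −0.032 with the replicate block. The cause was not tested. The reference also moved the median of all genes: in DNBS against healthy it went from 0.12 to −0.12 with the global mean, and in DNBS_CEC against healthy from 0.08 to −0.15 without Ywhaz and Rplp2. Sample numbers showed no sign of pairing the samples, though so few pairs cannot exclude it. Same-numbered samples deviated together with r over 0.1 in 4 of 10 pairs (−0.47 to 0.31), and other-numbered samples in 33 of 86. The replicate block changed no call (pooled Bmp8b 1.69, limma adjusted p = 0.304).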
